A study of Mus musculus with 8 samples.

Results

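The genes described here encode the TGF-beta ligands (Tgfb1, Tgfb2 and Tgfb3), the inhibin and activin subunits (Inha, Inhba and Inhbb) and the latent TGF-beta binding proteins (Ltbp1, Ltbp2, Ltbp3 and Ltbp4). They were taken by gene symbol, whatever their values, and all 10 have a row among the 35896 genes of the deposited count table. TGF-beta ligands are secreted in a latent form, in which the mature dimer stays wrapped in its own propeptide, and this complex is tied to the extracellular matrix by a latent TGF-beta binding protein until integrins, proteases or other activators free the ligand. Activins are dimers of inhibin beta subunits, inhibins pair a beta subunit with the alpha subunit, and a free TGF-beta or activin signals through type I and type II receptor kinases to Smad2 and Smad3. In the developing tooth, activin A, the dimer of the Inhba product, is a mesenchymal signal without which mouse incisors and lower molars do not form.

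RNA-seq was performed on whole molar tooth germs of BRE-GFP mouse embryos, which carry a fluorescent reporter of BMP-Smad activity, after 1 day of culture in medium with fetal bovine serum. E12.5 germs were treated with SB431542, which blocks the type I receptor kinases for TGF-beta and activin, with SIS3, which blocks Smad3, or with the solvent DMSO, and E13.5 germs were treated with DMSO. The doses, the number of germs in a sample and whether germs were pooled are not stated in the labels. With 2 deposited columns apiece, the 4 groups are called SB431542, SIS3, E13.5 DMSO and E12.5 DMSO.

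The kits differed between groups: SMARTer Universal Low Input, with random priming, for the SB431542 group and both DMSO groups, and TruSeq RNA v2, which starts from polyadenylated RNA, for SIS3, so SIS3 and the kit cannot be told apart. In the 3 SMARTer groups the totals of both columns differed by at most 0.00749%, and genes with 1 annotated transcript and at least 50 counts differed between columns with a median-based ratio of 1.19 to 1.26 to the sampling variance (1.56 to 3.03 by the mean). Genes with more transcripts had median-based ratios of 1.81 to 2.30 (3.01 to 3.77 by the mean). The SIS3 columns differed by 44.5% in total and had median-based ratios of 11.1 and 13.6 (30.9 and 25.5 by the mean). The columns of a SMARTer group were therefore summed to 1 library, which leaves 5 libraries with 5995709 to 30975010 counts, and only SIS3 has a second library. A SMARTer column is given as a value of its own, but both columns of a group count as 1 sample. The 7 dental mesenchyme markers summed to 2277 to 3399 CPM (each count divided by the library total and scaled to 1000000 counts) and were detected in every library, while the 8 epithelial markers summed to 38.8 to 236 CPM, and Shh, a signal of the dental epithelium, had 0 counts in SIS3 library 1 and in E13.5 DMSO.

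The sequences upstream of Tgfb1, Ltbp2 and Ltbp4 are shown because these genes carry the calls below, and that of Tgfb2 because it is one of the genes whose windows hold a Smad motif more than once. RefSeq promoter windows (GRCm38.p6) of 250 bases before the start were found for 9 of the 10 genes, in 12 windows, and were searched on both strands for CAGAC, a Smad3 and Smad4 binding motif whose reverse complement is GTCTG, and for TGANTCA, the AP-1 motif. Of 32851 mouse windows of that length, 42.2% held CAGAC and 11.7% held it at least 2 times. It was found in 5 of the 9 genes, Tgfb2, Ltbp2, Ltbp1, Ltbp3 and Inha, and TGANTCA, which 6.75% of all windows hold, was found in 0 of them. These counts are of genes, some with more than 1 window, whereas the shares over the mouse are of windows, so they are not like for like. Ltbp2 had CAGAC 205 and 176 bases before its start and Tgfb2 had it 221 and 204 bases before its start, whereas the windows of Tgfb1 and Ltbp4 had none. Ltbp1 had it 64 bases before the start in 1 window and 148 and 97 bases before the start in its other window. That other Ltbp1 window and the Inha window lie inside the annotated genes. In the sequences below, written 5′ to 3′ on the strand of the gene with the bases inside the annotated gene left off, capitals mark CAGAC or GTCTG.
Ltbp2 (chr12:84876533-84876741, minus strand): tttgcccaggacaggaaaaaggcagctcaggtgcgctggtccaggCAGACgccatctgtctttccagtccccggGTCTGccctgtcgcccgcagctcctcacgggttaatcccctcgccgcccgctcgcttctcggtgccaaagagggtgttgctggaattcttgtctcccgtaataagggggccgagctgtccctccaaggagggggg
Tgfb2 (chr1:186705990-186706239, minus strand): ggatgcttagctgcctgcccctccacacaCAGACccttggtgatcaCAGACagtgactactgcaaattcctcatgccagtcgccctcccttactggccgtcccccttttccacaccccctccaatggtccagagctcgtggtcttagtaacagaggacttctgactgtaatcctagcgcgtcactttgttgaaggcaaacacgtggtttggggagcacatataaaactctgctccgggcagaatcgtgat
Tgfb1 (chr7:25686752-25687001, plus strand): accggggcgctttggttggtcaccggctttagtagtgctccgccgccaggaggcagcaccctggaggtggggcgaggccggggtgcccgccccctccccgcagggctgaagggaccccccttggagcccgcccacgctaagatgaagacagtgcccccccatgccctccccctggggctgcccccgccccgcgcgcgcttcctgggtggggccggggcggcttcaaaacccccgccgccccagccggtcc
Ltbp4 (chr7:27337693-27337862, minus strand): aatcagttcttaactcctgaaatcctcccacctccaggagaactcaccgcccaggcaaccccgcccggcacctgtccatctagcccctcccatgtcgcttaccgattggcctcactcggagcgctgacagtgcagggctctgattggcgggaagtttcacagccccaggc

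These letters describe the windows only, and no binding was measured here. In the GRCm38 annotation, Tgfb1 spans chr7:25687002-25705077 on the plus strand, Tgfb2 chr1:186622792-186705989 on the minus strand, Ltbp2 chr12:84783212-84876532 on the minus strand and Ltbp4 chr7:27305136-27337692 on the minus strand. Tgfb3 spans chr12:86056745-86079041 (minus), Inha chr1:75507077-75510366 (plus), Inhba chr13:16011851-16031621 (plus), Inhbb chr1:119415465-119422248 (minus), Ltbp1 chr17:75005568-75392512 (plus) and Ltbp3 chr19:5740904-5758532 (plus). At most 0.634% of the 31-base words of any of the 10 genes (Inhba) recur in transcripts of other genes. The words were compared in the direction of the transcript only, so this covers near copies read in that direction and not matches on the opposite strand. Exons of other genes cover 12.4% of the exon bases of Tgfb3, 11% of those of Ltbp2, 3.51% of those of Ltbp3 and 2.42% of those of Tgfb2. No source used here gives the strand setting of the counting, so reads in those stretches cannot be assigned to a strand.

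In E12.5 DMSO germs, Ltbp1 had the highest level per transcript length among the 10 genes, with 44.4 CPM per kilobase, followed by Tgfb3 with 35.7 and Ltbp3 with 30.0. Ltbp4 with 23.6, Inhba with 23.3 and Tgfb2 with 22.4 CPM per kilobase came next, and Tgfb1 had 14.7. Inha, the alpha subunit of inhibins, had 3.15, Ltbp2 had 0.929 and Inhbb, the beta subunit of activin B, had 0.463 CPM per kilobase. Set against the fold between both SIS3 libraries, the only replicate spread there is, Ltbp1 and Tgfb3, Tgfb3 and Ltbp3, the trio Ltbp4, Inhba and Tgfb2, and the trio Inha, Ltbp2 and Inhbb held neighbours that were not set apart. The steps of 1.27-fold between Ltbp3 and Ltbp4, 1.52-fold between Tgfb2 and Tgfb1 and 4.67-fold between Tgfb1 and Inha were wider than that fold. The fold comes from a lone pair per gene and can be small by chance, so a wider step is not shown to exceed the variation between samples. For Ltbp3 and Ltbp4 it was 1.13 and 1.0, and with the longest transcripts their levels were 27.1 and 23.6 CPM per kilobase. With the longest annotated transcript as its length, Ltbp1 stood at 32.4 CPM per kilobase, below Tgfb3.

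Ltbp1 ranked highest per kilobase of main transcript in all 5 libraries, but with the longest transcript it had rank 3 in SB431542, at 28.2 CPM per kilobase below Tgfb2 (30.0) and Tgfb3 (29.3), and rank 2 in E12.5 DMSO. By main transcript, Inha, Ltbp2 and Inhbb held the lowest ranks except in SIS3 library 2, where Inha stood above Ltbp4 and Tgfb1. The ligands changed places more. Tgfb2 had rank 2 in SB431542 and in SIS3 library 2 and rank 7 in E13.5 DMSO, whereas Tgfb1 had rank 3 in E13.5 DMSO (rank 5 with the longest transcript) and rank 7 or 8 in the other libraries.

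The mix of the 3 TGF-beta ligands differed between libraries, of which the SIS3 libraries were made with another kit. The GC content of the main transcript was 62.5% for Tgfb1, 46.9% for Tgfb2 and 53.0% for Tgfb3. The part of the kit and of GC content in these shares was not tested. Of their summed CPM per kilobase, Tgfb1 made up 18.1% in SB431542, 4.96% and 7.32% in the SIS3 libraries, 42.4% in E13.5 DMSO and 20.2% in E12.5 DMSO. Tgfb2 made up 41.4% in SB431542, 46.7% and 66.0% in SIS3, 16.9% in E13.5 DMSO and 30.8% in E12.5 DMSO. Tgfb3 made up 40.5% in SB431542, 48.3% and 26.6% in SIS3, 40.7% in E13.5 DMSO and 49.0% in E12.5 DMSO, where it was the largest share. The largest share was thus that of Tgfb2 in SB431542 by a margin of under 1 point, Tgfb1 in E13.5 DMSO and Tgfb3 in E12.5 DMSO, and the SIS3 libraries differed on it. With the longest annotated transcripts the order in E13.5 DMSO turned, to 28.4 CPM per kilobase for Tgfb1 and 32.2 for Tgfb3. The summed level of the 3 ligands was 72.4 CPM per kilobase in SB431542, 44.7 in each SIS3 library, 79.2 in E13.5 DMSO and 72.8 in E12.5 DMSO.

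**Figure D1:**
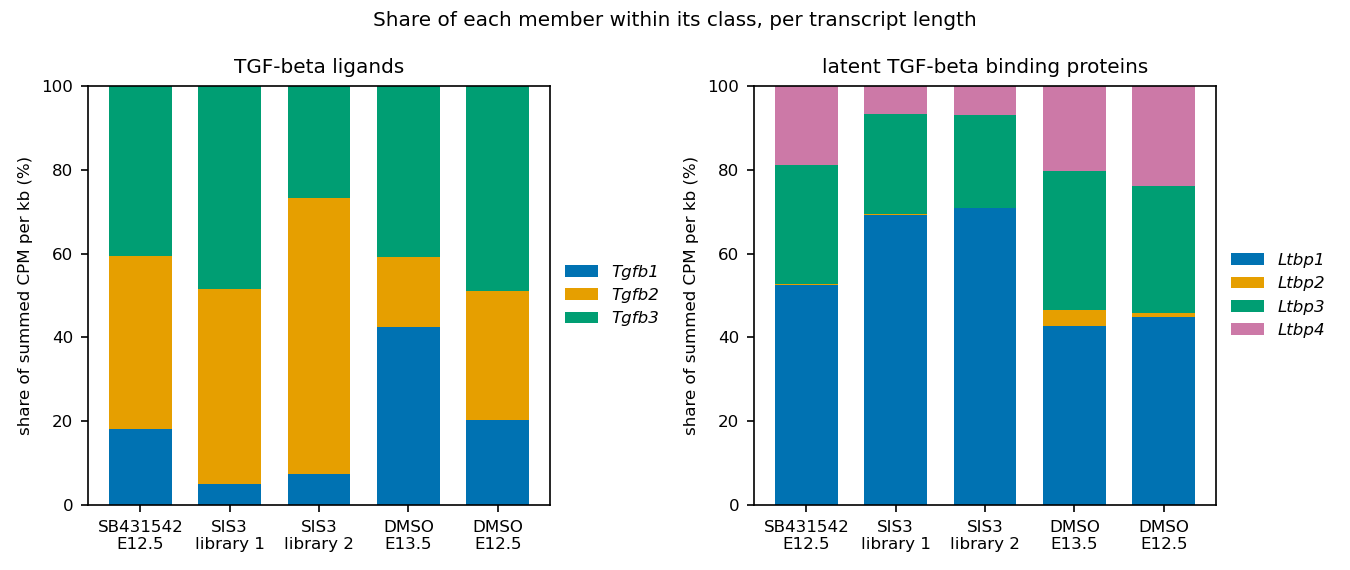
Share of each gene (%) in the summed CPM per kilobase of its class, TGF-beta ligands on the left and latent TGF-beta binding proteins on the right, with 1 bar for each of the 5 libraries and no error bars. The SIS3 libraries were made with another kit. Tgfb1 made up 4.96% and 7.32% of the ligands in the SIS3 libraries, against 20.2% in E12.5 DMSO, and Ltbp4 made up 6.68% and 7.02% of the binding proteins in the SIS3 libraries and 23.9% in E12.5 DMSO.

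Among the latent TGF-beta binding proteins, Ltbp1 held 52.6% of the summed CPM per kilobase in SB431542, 69.3% and 70.9% in SIS3, 42.7% in E13.5 DMSO and 44.9% in E12.5 DMSO. Ltbp3 held between 22.0% and 33.0% in every library. Ltbp4 held 18.8% in SB431542, 6.68% and 7.02% in SIS3, 20.4% in E13.5 DMSO and 23.9% in E12.5 DMSO, and Ltbp2 held at most 3.93%, in E13.5 DMSO. The summed level of the 4 genes was 73.6 CPM per kilobase in SB431542, 71.9 and 68.3 in SIS3, 126 in E13.5 DMSO and 98.9 in E12.5 DMSO. Among the inhibin and activin subunits, Inhba held 79.6% in SB431542, 93.2% and 61.3% in SIS3, 87.8% in E13.5 DMSO and 86.6% in E12.5 DMSO, so the beta subunit of activin A was the main transcript of its class in every library.

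Differences between groups were tested with edgeR's quasi-likelihood test over the 19022 genes with enough counts, all 10 genes among them. Adjusted p-values are Benjamini-Hochberg values over all these genes, and a call is an adjusted p under 0.05. The only residual degree of freedom comes from the SIS3 pair, so each lone library was assumed to vary like it, and the p-values measure a spread that may be technical. Fold changes are given on the log2 scale with their standard error (SE) and 95% confidence interval (CI).

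**Figure D2:**
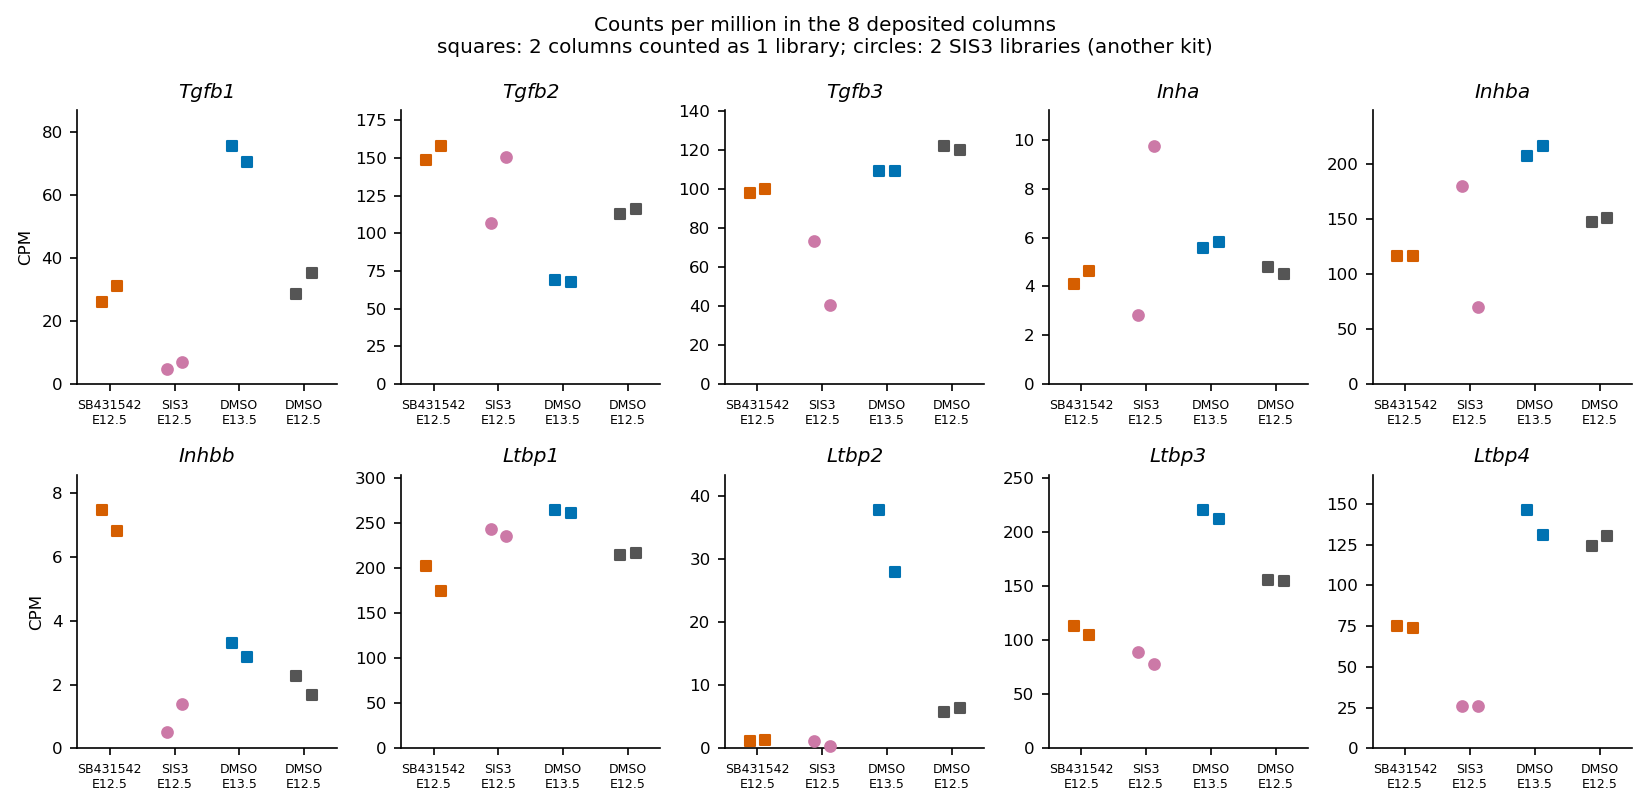
CPM of each of the 10 genes in the 8 deposited columns, on linear axes that start at 0 and differ between panels. Squares are the paired columns of 1 library and circles the SIS3 libraries, made with another kit; Tgfb1 and Ltbp4 were lower in both SIS3 libraries than in every other column, and Ltbp2 was highest in E13.5 DMSO.

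Tgfb1, which encodes the TGF-beta isoform known for its role in immune and vascular tissue, had 26 and 31 CPM in the SB431542 columns, 4.84 and 7.11 CPM in SIS3, 75.6 and 70.6 CPM in E13.5 DMSO, and 28.7 and 35.1 CPM in E12.5 DMSO. Both SIS3 libraries lay below all other columns, both E13.5 columns lay above them, and the SB431542 columns overlapped those of E12.5 DMSO. Against E12.5 DMSO, Tgfb1 in SIS3 fell by 2.48 on the log2 scale (SE 0.38, 95% CI -3.31 to -1.65), a 5.57-fold lower level, with an edgeR adjusted p of 0.00326. This call was made under all 16 alternative settings that gave a test. In SB431542 the log2 fold change of Tgfb1 was -0.21 (SE 0.44, 95% CI -1.16 to 0.74), and in E13.5 against E12.5 DMSO it was 1.23 (SE 0.45, 95% CI 0.26 to 2.19) with an edgeR adjusted p of 0.121, which is not a call.

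Tgfb2, which encodes the isoform whose loss in mice gives heart, craniofacial and skeletal defects, had 149 and 158 CPM in SB431542, 107 and 151 CPM in SIS3, 69.1 and 67.8 CPM in E13.5 DMSO, and 113 and 116 CPM in E12.5 DMSO. The SB431542 and E13.5 columns lay on opposite sides of those of E12.5 DMSO, which both lay between the SIS3 libraries. Its log2 fold change was 0.37 in SB431542 (95% CI -0.41 to 1.14), 0.10 in SIS3 (95% CI -0.58 to 0.77) and -0.71 in E13.5 against E12.5 DMSO (95% CI -1.49 to 0.07), with no call.

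Tgfb3, which encodes the isoform needed for fusion of the mouse palate, had 98.1 and 100 CPM in SB431542, 73.1 and 40.4 CPM in SIS3, 109 CPM in both columns of E13.5 DMSO, and 122 and 120 CPM in E12.5 DMSO. Both SIS3 libraries were the lowest, and they differed 1.81-fold from each other. The log2 fold change was -0.34 in SB431542 (SE 0.44), -1.16 in SIS3 (SE 0.37, 95% CI -1.98 to -0.34) and -0.12 in E13.5 against E12.5 DMSO (SE 0.44). None of these was a call, and the SIS3 value had an edgeR adjusted p of 0.131.

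The inhibin and activin subunit genes gave no call in any comparison. Inhba had 116 CPM in both columns of SB431542, 180 and 70.0 CPM in SIS3, 207 and 216 CPM in E13.5 DMSO, and 147 and 151 CPM in E12.5 DMSO. The SIS3 libraries lay on both sides of E12.5 DMSO and differed 2.57-fold from each other, so the interval of the Inhba fold change was wide: -0.42 in SB431542 (95% CI -2.59 to 1.76), -0.32 in SIS3 (95% CI -2.19 to 1.54) and 0.54 in E13.5 against E12.5 DMSO (95% CI -1.64 to 2.71), on the log2 scale. Inha had 4.12 and 4.62 CPM in SB431542, 2.84 and 9.76 CPM in SIS3, 5.59 and 5.82 CPM in E13.5 DMSO, and 4.78 and 4.52 CPM in E12.5 DMSO. Here too the SIS3 libraries, 3.44-fold apart, lay on both sides of the E12.5 DMSO columns, and the log2 fold change was -0.14 in SB431542 (SE 0.86), 0.38 in SIS3 (SE 0.77) and 0.33 in E13.5 against E12.5 DMSO (SE 0.87).

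Inhbb had its highest level in SB431542, with 7.46 and 6.82 CPM, against 2.26 and 1.68 CPM in E12.5 DMSO. It had 0.5 and 1.38 CPM in SIS3, from 3 and 13 counts, and 3.31 and 2.85 CPM in E13.5 DMSO. The ratio of the SB431542 library to the E12.5 DMSO library, 201 counts against 61, was 3.62 with an exact 95% interval of 2.71 to 4.91 that covers counting error only. With the spread of the SIS3 pair, which differed 2.76-fold for Inhbb, the log2 fold change in SB431542 was 1.80 (SE 0.95, 95% CI -0.23 to 3.84, unadjusted edgeR p 0.0785), which is not a call. In SIS3 the log2 fold change of Inhbb was -1.08 (SE 0.86). With SIS3 library 1 alone it was -2.01, and over all alternative settings it ran from -2.01 to -0.60. In E13.5 against E12.5 DMSO it was 0.68 (SE 0.94). The summed level of the 8 epithelial markers was 38.8 CPM in SB431542, against 124 CPM in E12.5 DMSO; its part in the Inhbb value was not tested.

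The latent TGF-beta binding protein genes did not all do the same. The GC content of the main transcript was 49.1% for Ltbp1, 58.5% for Ltbp2, 61.5% for Ltbp3 and 62.2% for Ltbp4. The part of the kit and of GC content in their SIS3 values was not tested. Ltbp1, whose protein is a main matrix partner of latent TGF-beta, had 202 and 175 CPM in SB431542, 243 and 235 CPM in SIS3, 264 and 261 CPM in E13.5 DMSO, and 215 and 217 CPM in E12.5 DMSO. It stayed within a narrow range, with log2 fold changes of -0.25 in SB431542 (95% CI -0.96 to 0.46), 0.07 in SIS3 (95% CI -0.54 to 0.69) and 0.31 in E13.5 against E12.5 DMSO, none of them a call. Ltbp3, which carries latent TGF-beta in developing bone and tooth and whose loss in humans is linked to missing teeth and thin enamel, had 113 and 105 CPM in SB431542, 88.6 and 78.1 CPM in SIS3, 220 and 212 CPM in E13.5 DMSO, and 156 and 155 CPM in E12.5 DMSO. Its SIS3 libraries lay below all other columns and its E13.5 columns above them. The log2 fold change of Ltbp3 was -0.57 in SB431542 (SE 0.34), -0.97 in SIS3 (SE 0.29, 95% CI -1.60 to -0.35, edgeR adjusted p 0.0891) and 0.51 in E13.5 against E12.5 DMSO (SE 0.34), again with no call.

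Ltbp4, whose protein also takes part in elastic fibre assembly, had 74.8 and 73.6 CPM in SB431542, 25.9 and 25.8 CPM in SIS3, 146 and 131 CPM in E13.5 DMSO, and 124 and 130 CPM in E12.5 DMSO. The inhibitor libraries lay below both DMSO libraries, with SIS3 lowest. Against E12.5 DMSO, Ltbp4 in SIS3 fell by 2.37 on the log2 scale (SE 0.30, 95% CI -3.01 to -1.73), a 5.17-fold lower level, with an edgeR adjusted p of 0.000595, and this call too was made under all 16 settings that gave a test. In SB431542 the log2 fold change of Ltbp4 was -0.83 (SE 0.35, 95% CI -1.58 to -0.07) with an unadjusted edgeR p of 0.0342 and an adjusted p of 1, and in E13.5 against E12.5 DMSO it was 0.16 (SE 0.35).

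Ltbp2, an elastic fibre protein that, unlike its relatives, is not known to bind latent TGF-beta, had the widest differences among the 10 genes. It had 1.21 and 1.35 CPM in SB431542, 1.17 and 0.424 CPM in SIS3, from 7 and 4 counts, 37.7 and 27.9 CPM in E13.5 DMSO, and 5.81 and 6.46 CPM in E12.5 DMSO. All inhibitor columns lay below the E12.5 DMSO columns, and both E13.5 columns lay above them. Against E12.5 DMSO, Ltbp2 in SIS3 fell by 3.10 on the log2 scale (SE 0.68, 95% CI -4.55 to -1.64), with an edgeR adjusted p of 0.0220. The call was made under 13 of 16 alternative settings and ended with genes of a mean of at least 5 CPM only (adjusted p 0.0977), with trends in GC content and length removed (0.085) and with the libraries of both groups alone (0.131). In SB431542 its log2 fold change was -2.31 (SE 0.74, 95% CI -3.90 to -0.72, unadjusted edgeR p 0.00787, adjusted p 1), from 36 counts against 190. In E13.5 against E12.5 DMSO it was 2.45 (SE 0.72, 95% CI 0.90 to 3.99, unadjusted edgeR p 0.00454, adjusted p 0.0636), from 574 counts against 190, a library ratio of 5.34 with an exact 95% interval of 4.53 to 6.33 for counting error only.

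**Figure D3:**
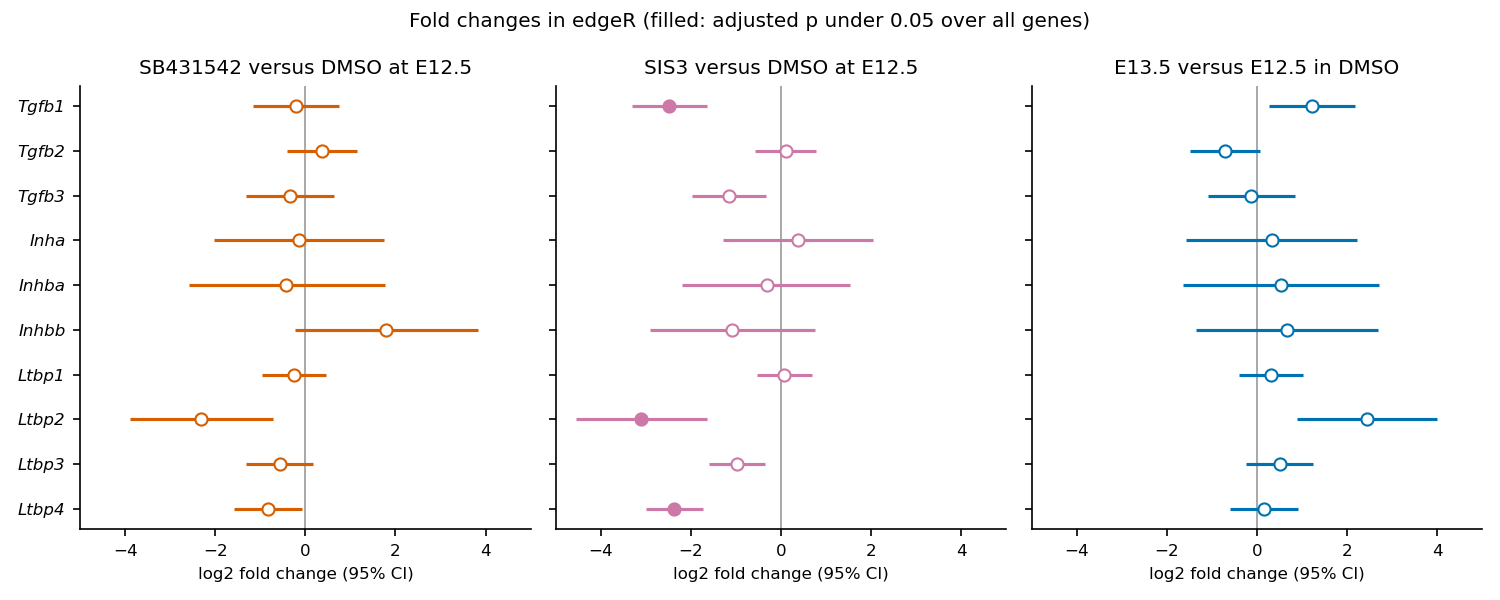
Log2 fold change against E12.5 DMSO with its 95% CI from edgeR for each of the 10 genes, in SB431542 (left), SIS3 (middle) and E13.5 DMSO (right); filled points have an adjusted p under 0.05 over all genes tested. The filled points are Tgfb1, Ltbp2 and Ltbp4 in SIS3, at -2.48, -3.10 and -2.37.

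For SB431542 against DMSO at E12.5, 0 of the 10 genes were called, beside 0 of the 19022 genes tested (0%). At an unadjusted edgeR p under 0.05 there were 2 of the 10, Ltbp2 and Ltbp4, both with lower fitted values, beside 235 genes or 1.24% of all. A share of 0.05 would pass with no differences and a fitting spread, so the spread taken from the SIS3 pair made this test strict. The confidence intervals of all genes had a median half-width of 1.22 on the log2 scale. The 0 calls therefore do not show a lack of response to SB431542. DESeq2 called 3 genes, none of them among the 10. Fitted values were lower for 8 of the 10 and higher for Tgfb2 and Inhbb, with a median log2 fold change of -0.29, beside 0 over all genes. The endothelial and macrophage markers summed to 510 and 50.2 CPM in SB431542, against 435 and 66.1 CPM in E12.5 DMSO. The epithelial markers summed to 38.8 CPM in SB431542, against 124 CPM in E12.5 DMSO, with lower fitted values for 7 of the 7 tested and a median log2 fold change of -1.56, and the pericyte markers to 503 CPM, against 628 CPM, with lower fitted values for 5 of 6 and a median of -0.41. None of these markers was called, and their part in the values of the 10 genes was not tested.

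For SIS3 against DMSO at E12.5, 3 of the 10 genes fell (Tgfb1, Ltbp2 and Ltbp4) and 0 rose, beside 727 of all genes (3.82%), of which 576 were lower and 151 higher. Fitted values were lower for 7 of the 10, and the median log2 fold change was -1.03, beside 0 over all genes. Markers of some other cell types were lower in the same libraries. The epithelial, neural and Schwann, and megakaryocyte and platelet lists were not, with median log2 fold changes of 0.14, 0.34 and 0.30 and 0 called. The 10 endothelial markers summed to 49.9 and 42.5 CPM in SIS3, against 435 CPM in E12.5 DMSO, and all 10 were called lower, although none was at 0. The 10 macrophage markers summed to at most 13.2 CPM in SIS3, against 66.1 CPM in E12.5 DMSO, with 5 of 10 called lower, C1qa at 0 in SIS3 library 1, and C1qb, C1qc and Adgre1 at 0 in library 2. The 6 pericyte markers summed to 378 and 393 CPM in SIS3, against 628 CPM in E12.5 DMSO, with 2 called lower, and the 5 skeletal muscle markers to 268 and 219 CPM, against 748 CPM, with 3 called lower. The part of these cell types and of the kit in the values of Tgfb1, Ltbp2 and Ltbp4 was not tested, and in whole germs fewer cells of a type cannot be told apart from less RNA per cell. The 7 dental mesenchyme markers, at 2884 and 2558 CPM in SIS3 against 3270 CPM in E12.5 DMSO, had no call.

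**Figure D4:**
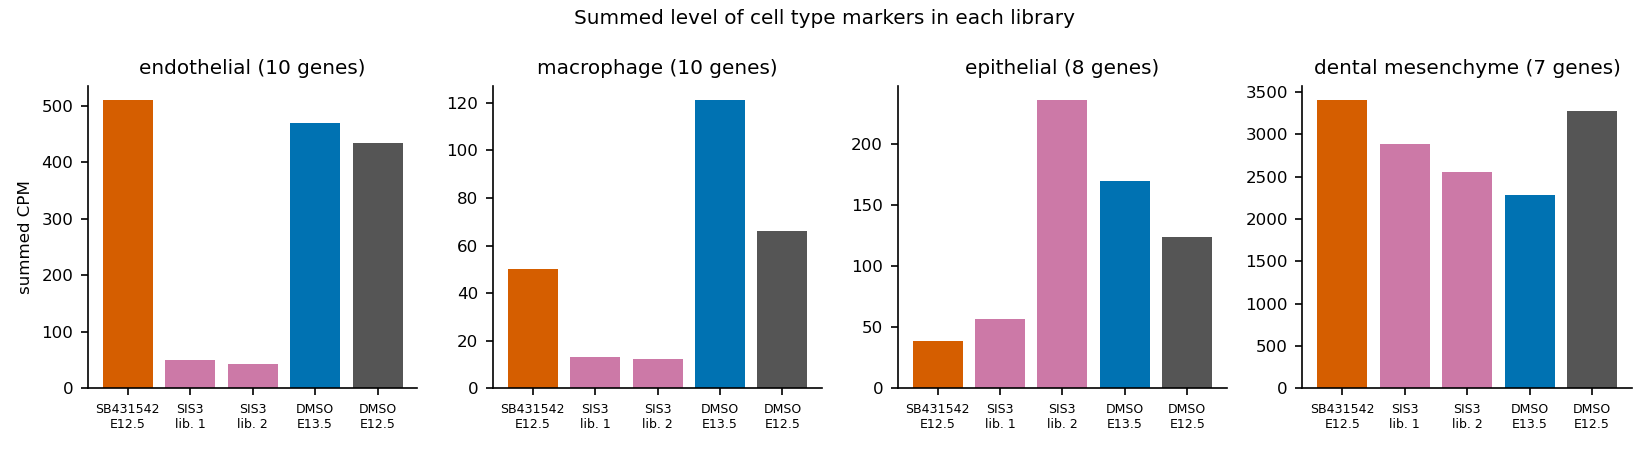
Summed CPM of the fixed marker genes of 4 cell types in each of the 5 libraries, on linear axes that start at 0 and differ between panels, with no error bars. Endothelial markers stood at 49.9 and 42.5 CPM in the SIS3 libraries and at 435 to 510 CPM in the other 3, while dental mesenchyme markers stayed between 2277 and 3399 CPM.

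For E13.5 against E12.5 in DMSO, 0 of the 10 genes were called, beside 995 of all genes (5.23%), and DESeq2 also called 0 of the 10. At an unadjusted edgeR p under 0.05 there were 2, Tgfb1 and Ltbp2, both with higher fitted values. Over all genes tested there were 4616, or 24.3%, so the number among the 10 was near that share. Such shares depend on the genes tested. With protein-coding genes without odorant and pheromone receptors, chosen after seeing the data, 146 of 15970 genes and 0 of the 10 were called. Fitted values were higher for 8 of the 10 and lower for Tgfb2 and Tgfb3, with a median log2 fold change of 0.42, beside 0 over all genes. The macrophage markers summed to 121 CPM in E13.5 DMSO, against 66.1 CPM in E12.5 DMSO, with 0 of 10 called, and the endothelial markers to 470 CPM, against 435 CPM. The part of these cells in the Tgfb1 value was not tested.

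For SIS3 against SB431542, a direct comparison of both inhibitors at E12.5, 2 of the 10 genes were lower in SIS3 by the test (Tgfb1 and Ltbp4), beside 465 of all genes (2.44%), of which 370 were lower and 95 higher. The log2 fold change was -2.26 for Tgfb1 (SE 0.39, 95% CI -3.09 to -1.43, edgeR adjusted p 0.00675) and -1.54 for Ltbp4 (SE 0.30, 95% CI -2.18 to -0.90, edgeR adjusted p 0.0130). Their calls were made under 14 and 13 of 16 settings. Ltbp2 did not show a difference between the inhibitors, with a log2 fold change of -0.79 whose 95% CI of -2.35 to 0.78 also admits a wide one. Inhbb had the lowest value, -2.88 (SE 0.83, 95% CI -4.67 to -1.10), with an edgeR adjusted p of 0.101. Without SIS3 library 2 it was -3.81, and over all alternative settings it ran from -3.81 to -2.41. This comparison also crosses the kits, and the endothelial markers summed to 49.9 and 42.5 CPM in SIS3, against 510 CPM in SB431542.

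Other genes of the pathway were followed as lists. Of 20 genes for anchors and activators of the latent complex, 6 fell in SIS3 against E12.5 DMSO and 0 rose (median log2 fold change -0.83), beside 3.82% of all genes called. In SB431542 0 were called (median -0.26), beside 0% of all genes, and in E13.5 DMSO 0 (median -0.09), beside 5.23%. Fbn1, whose fibrillin microfibrils anchor the latent TGF-beta binding proteins, had 340 and 332 CPM in SIS3, against 739 CPM in E12.5 DMSO, and fell by 1.21 on the log2 scale (edgeR adjusted p 0.0222). Itgb5, an integrin subunit that pairs with the alpha-v chain, had 169 and 178 CPM in SIS3, against 424 CPM in E12.5 DMSO, and fell by 1.36 (edgeR adjusted p 0.0126). Furin and Pcsk6 encode proprotein convertases, and furin cleaves the TGF-beta precursor. Furin fell by 1.32 and Pcsk6 fell by 2.14, and Pcsk6, with 12.8 and 17.6 CPM in SIS3 against 64.2 CPM in E12.5 DMSO, was called under all 16 settings. Mmp2, a matrix protease gene, fell by 1.36. Nrros, whose protein holds latent TGF-beta on macrophages and microglia, had 0.5 and 0.849 CPM in SIS3, against 8.88 CPM in E12.5 DMSO, and fell by 3.74. In the same libraries 5 of the 10 macrophage markers were called lower. The part of macrophages and of the kit in the Nrros value was not tested. Furin was called under 12 of 16 settings, Fbn1 and Mmp2 under 13, and Itgb5 and Nrros under 14. Fbn2, another fibrillin gene, with the most CPM of the list in the 3 SMARTer libraries (not scaled to length), had 1073 and 1162 CPM in SIS3, against 1673 CPM in E12.5 DMSO, and was not called in any comparison. Fn1, the fibronectin gene, had the most in the SIS3 libraries, 1581 and 1539 CPM, against 1169 CPM in E12.5 DMSO, with no call.

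Of the 8 receptor genes, 2 fell in SIS3 against E12.5 DMSO and 0 rose, beside 3.82% of all genes called (576 lower and 151 higher), although the median of the list was 0.51. The genes that fell were Eng, the endothelial co-receptor endoglin, by 2.15 on the log2 scale (called under 13 of 16 settings), beside the lower endothelial markers, and Tgfbr2, the type II receptor of TGF-beta, by 1.33 with an edgeR adjusted p of 0.0322. The part of endothelial cells and of the kit in the Eng value was not tested. Tgfbr2 had 78.9 and 55.2 CPM in SIS3, against 160 CPM in E12.5 DMSO, and was called under 10 of 16 settings. Tgfbr1, the type I receptor, with the most CPM of the list in E12.5 DMSO (not scaled to length), had 187 CPM in SB431542, 210 and 184 CPM in SIS3, 123 CPM in E13.5 DMSO and 181 CPM in E12.5 DMSO, with no call. No receptor gene was called in SB431542 (median 0.10), beside 0% of all genes, or in E13.5 DMSO (median -0.12), beside 5.23%.

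Of the 6 secreted inhibitors that bind ligands, Fst, the activin antagonist follistatin, and Bgn, the matrix proteoglycan biglycan, had log2 fold changes of -1.44 and -1.60 in SIS3, both calls, beside 3.82% of all genes. Fst had 13 and 14.7 CPM in SIS3, against 35.7 CPM in E12.5 DMSO, but its call, with an edgeR adjusted p of 0.0409, was made under 8 of 16 settings. All 6 of these genes had lower fitted values in SB431542 too, with a median of -1.29 and 0 called, beside 0% of all genes. Of 8 feedback and target genes of Smad2 and Smad3, 0 were called in SB431542 (7 with lower fitted values, median -0.48), beside 0% of all genes. In SIS3 0 were called (median -0.51), beside 3.82%. In E13.5 against E12.5 DMSO 1 of the 8 was called, beside 5.23% of all genes. This was Tagln, a smooth muscle actin-binding protein gene, which was higher in E13.5 by 1.77 (edgeR adjusted p 0.0482, called under 5 of 15 settings).

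In SIS3 against SB431542, 2.44% of all genes were called, 370 lower and 95 higher. Of the 20 anchor and activator genes, 3 were called lower, Pcsk6, Furin and Nrros, with log2 fold changes of -1.85, -1.34 and -4.26. Of the 8 receptor genes, 2 were called lower, Eng (-2.27) and Tgfbr2 (-1.42). Calls of higher levels took in 2 of the 8 feedback and target genes and 1 of the 6 secreted inhibitors. Skil and Pmepa1, inhibitors of Smad signalling that the pathway itself induces, were higher in SIS3 than in SB431542, by 2.10 (edgeR adjusted p 0.0115) and 1.51 (0.0479), as was Aspn, a small proteoglycan gene, by 1.76 (0.0470). Skil had 256 and 163 CPM in SIS3, against 48.3 CPM in SB431542, with 171 CPM in E12.5 DMSO. Pmepa1 had 42.0 and 35.3 CPM in SIS3, 13.4 CPM in SB431542 and 49.2 CPM in E12.5 DMSO. Aspn had 16.2 and 19.2 CPM in SIS3, 5.15 CPM in SB431542 and 35.5 CPM in E12.5 DMSO. Against E12.5 DMSO, log2 fold changes of Skil, Pmepa1 and Aspn were -1.88, -1.93 and -2.84 in SB431542. In SIS3 they were 0.22, -0.42 and -1.08, and none of these values was a call. Of 16 settings, the calls of Pmepa1, Aspn, Furin, Tgfbr2 and Eng were made under 7, 8, 9, 11 and 13, those of Pcsk6 and Skil under 14 and that of Nrros under 15.

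Of 9 other TGF-beta family genes, ligands for the same receptors with antagonists among them, 6 had enough counts to be tested. Gdf11, with the most CPM of them in every library (not scaled to length), had 62.6 CPM in SB431542, 33.9 and 62.1 CPM in SIS3, 35.3 CPM in E13.5 DMSO and 39.4 CPM in E12.5 DMSO, with no call. Mstn, which encodes the muscle growth inhibitor myostatin, had 0 counts in E13.5 DMSO, against 2.55 CPM in E12.5 DMSO, and was at least 14.9-fold lower with 3 counts taken as the floor of the E13.5 library (edgeR adjusted p 0.0236, called under 10 of 14 settings). It was the only gene of this list called in E13.5 against E12.5 DMSO, beside 5.23% of all genes. The skeletal muscle markers were 762 CPM in E13.5 DMSO, against 748 CPM in E12.5 DMSO, a sum carried by Ttn (676 CPM in E13.5 DMSO, against 597 CPM). Fitted values were lower for 4 of these 5 markers, with a median log2 fold change of -1.34, and 1 was called, Myod1, which had 0 counts in E13.5 DMSO. The part of muscle in the Mstn value was not tested.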

How the data were processed

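The authors deposited 1 table of estimated counts per gene for 8 columns, already whole numbers and not scaled. Per the submitters' processing notes, mm10 was the build and the tools included Salmon, alongside deepTools, DESeq2, SAMtools and HISAT2, with no step or version given; no source used here names the annotation or the counting options. Of 35896 genes, 35437 matched GENCODE M21 (GRCm38) by ID. Salmon-type counts of overlapping or near-identical genes can move between them.

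From these counts, CPM was computed on each column or library total, and CPM per kilobase on the length of the main transcript. Library totals were 5995709 to 30975010, so 3 counts, taken as the floor where a count is 0, equal 0.0969 to 0.5 CPM. Intervals of library ratios are exact binomial ones and, like the floor, cover counting error only. Columns with near-equal totals and median-based ratios near sampling noise were summed. Some genes differed more between such columns, as Ltbp1 did in SB431542 (2838 and 2469 counts). Tests used edgeR 4.0.16 in R 4.3.3 on the deposited counts (TMM scaling, filterByExpr, robust quasi-likelihood F test, all 4 groups in 1 fit, 1 residual and a median of 12.5 prior degrees of freedom, common biological coefficient of variation 29.3%), with Benjamini-Hochberg adjustment at 0.05, and were also run on simulated data. That simulation gave all libraries the same spread and no kit effect, so it cannot check whether lone libraries vary like the SIS3 pair. Alternatives were DESeq2 1.42.0, other scaling, filters, columns as replicates, GC and length trends, fewer groups and columns left out. All 10 genes are named whatever their values, and other genes where they were called or had the most CPM of their list; Shh, Ttn and the macrophage markers at 0 were named after their values were seen. The genes and lists were chosen with earlier results of these data known. Promoter windows are RefSeq's.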

Additional observations from a re-analysis of the deposited data

How the results depend on the processing

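The calls of Tgfb1 and Ltbp4 in SIS3 against E12.5 DMSO were kept under all 16 alternatives that gave a test, and 0 of the 10 genes were called in SB431542 except where the columns of 1 library were taken as replicates. The 10 genes gave 0, 3, 0 and 2 calls for SB431542, SIS3 and E13.5 against E12.5 DMSO and for SIS3 against SB431542, beside 0, 727, 995 and 465 genes in all. With all 8 columns as replicates, which takes a spread near sampling noise for that between samples, they gave 4, 5, 5 and 6, beside 259, 6764, 9742 and 5805 genes. Adding the replicate number as a block to that fit gave 1, 5, 5 and 6, beside 83, 6194, 9260 and 5191 genes; deviations of same-numbered columns correlated between -0.0754 and 0.0417, so the numbers share only a name and give no pairing. Without a filter on low counts there were 0, 5, 1 and 3, beside 27, 1414, 2062 and 1027 genes. At a mean of 5 CPM or more, where fewer genes were tested, there were 0, 2, 0 and 0, beside 0, 130, 192 and 85 genes. With GC and length trends removed there were 0, 2, 0 and 1, beside 0, 335, 256 and 198 genes, and the Inhba value in SIS3 against SB431542 turned to -0.09; the cause was not tested. With the libraries of both groups alone, SIS3 against E12.5 DMSO gave 2 and SIS3 against SB431542 gave 0, beside 232 and 166 genes; the other comparisons then have no residual degrees of freedom and were not run. Protein-coding genes without odorant and pheromone receptors, chosen after seeing the data, gave 0, 3, 0 and 2, beside 0, 478, 146 and 292 genes. DESeq2 gave 0, 3, 0 and 2, beside 3, 681, 614 and 471 genes. In SIS3 against SB431542, the Tgfb1 call ended at 5 CPM (adjusted p 0.0637) and with both groups alone (0.0672), and the Ltbp4 call at 5 CPM (0.0739), with trends removed (0.0735) and with both groups alone (0.0612).

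Leaving out 1 SMARTer column at a time gave 0 to 1 genes in SB431542, 488 to 708 in SIS3, 399 to 903 in E13.5 and 314 to 477 in SIS3 against SB431542, with 0, 3, 0 and 2 of the 10 genes called each time; the E13.5 count was 419 without its column 1, 399 without its column 2 and 662 without column 2 of E12.5 DMSO. Leaving out a SIS3 library leaves no residual degrees of freedom, so it gave values with no test. Medians over all genes moved by at most 0.05 on the log2 scale under other scalings. The SIS3 libraries are the shallowest, and Ltbp2 and Inhbb rest there on 3 to 13 counts. The design has 1 library in 3 of 4 groups, and the kit goes with SIS3.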

Other observations

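Markers of megakaryocytes and platelets, which store TGF-beta, were low in every library. The 5 genes summed to 5.36 CPM in SB431542, 11.8 and 5.30 CPM in SIS3, 4.05 CPM in E13.5 DMSO and 5.17 CPM in E12.5 DMSO, and 0 of the 4 with enough counts were called in any comparison. Of all genes, 0% were called in SB431542, 3.82% in SIS3 and 5.23% in E13.5 against E12.5 DMSO, and 2.44% in SIS3 against SB431542. The 5 neural and Schwann cell markers summed to 22.4 CPM in SB431542, 28.9 and 26.7 CPM in SIS3, 19.7 CPM in E13.5 DMSO and 22.0 CPM in E12.5 DMSO, again with 0 of 4 called. The epithelial markers summed to 38.8 CPM in SB431542, 57.2 and 236 CPM in SIS3, 170 CPM in E13.5 DMSO and 124 CPM in E12.5 DMSO, so the SIS3 libraries differed on them, and 0 of 7 were called in any comparison. Inha had 2.84 and 9.76 CPM in the same SIS3 libraries, and whether both values move together was not tested.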
